A study of Mus musculus with 6 samples.

Results

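The insulin-like growth factor (IGF) system was followed here through 10 genes: the ligands *Igf1* and *Igf2*, the receptors *Igf1r* and *Igf2r*, and the binding proteins *Igfbp2*, *Igfbp3*, *Igfbp4*, *Igfbp5*, *Igfbp6* and *Igfbp7*. They were chosen by symbol, and all 10 were found among the 32285 genes counted. Transcripts were counted by droplet scRNA-seq as unique molecular identifiers (UMIs, 1 tag per captured mRNA molecule) in tdTomato+ cells sorted from mouse dorsal skin, with 1 library per mouse and 2 mice (S1 and S2) per group. WT telogen mice (resting hair follicles, postnatal day 20) and WT anagen mice (growing follicles, postnatal day 32) carried the tdTomato reporter, Cdh5-CreERT2 and Krt14-H2BGFP on a C57BL/6;CD1 background. Alk1 KO mice were taken in telogen at postnatal day 25 and carried Alk1 flox/flox, tdTomato and Cdh5-CreERT2 on C57BL/6 (their titles give this genotype, while another field of the same labels gives wild type). All 6 mice received tamoxifen at 200 µg per g at postnatal day 17. Recombination was therefore driven by the promoter of *Cdh5* (VE-cadherin) in all groups, and Alk1 was deleted only where Cre was active. Cells were sorted as tdTomato+ GFP− in WT and as tdTomato+ in the KO. Age, the time since tamoxifen, strain, the Krt14-H2BGFP transgene and the sort gate differed together with the Alk1 genotype and cannot be told apart from it. The paper of these data also describes the KO cells as a previous dataset, so any difference between the experiments goes with the genotype too.

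IGF1 and IGF2 are secreted growth factors that activate the receptor tyrosine kinase IGF1R and, through insulin receptor substrates, the PI3K-AKT and MAPK pathways. IGF2R, the cation-independent mannose-6-phosphate receptor, does not signal in this way but takes up and degrades IGF2 and sorts lysosomal enzymes. IGFBP2 to IGFBP6 bind IGFs with high affinity and hold them away from the receptor or release them when cut by proteases such as PAPP-A. IGFBP7 binds IGFs weakly and is known as a matrix protein of blood vessels. In skin, IGF1 from mesenchymal cells is known as a signal that sustains hair growth.

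The analysis used cells in which 200 to 5000 genes were detected and mitochondrial UMIs stayed below 10%, 1713 to 5106 per library and 20941 in all. The Alk1 KO libraries were the smallest, with 9525626 and 10416750 UMIs in kept cells against 27291894 to 39357932 in the WT libraries. Between 1 and 8 cell barcodes were shared by any pair of libraries. Clusters were named from marker genes, without the 10 genes or their pathway lists among the genes used to cluster, and every name is given as "-like" because markers alone support it. They comprised artery-like, vein-like and capillary-like endothelial cells (ECs), collecting (Lymph-Col-like) and capillary (Lymph-Cap-like) lymphatic ECs, perineurial-like cells (of the sheath around nerves), pericyte/vSMC-like, fibroblast-like, Schwann-like, macrophage-like, mast-like and T/NK-like cells, and other myeloid cells led by *Lyz1*, *Lyz2* and *Il1b*. A further 115 monocyte/DC-like, 85 neutrophil-like and 424 proliferative cells, 2287 ECs that could not be named (10.9% of the kept cells) and 796 other unnamed cells entered no test. The 123 Schwann-like cells entered none either, with 8 in anagen S2 and 7 in KO S1, below the 10 required. The fibroblast-like and macrophage-like cells held little of the EC markers that the sort aims at: 9 EC markers summed to 48.4 to 277 and 55.6 to 454 CPM (UMIs of a gene scaled to a library sum of 1e+06) in these cells, against 7772 to 9555 in artery-like and capillary-like ECs.

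Sequences are shown for the 4 genes that passed the test in 4 or more cell types of the Alk1 KO comparison below, so that the starts of the members with the most calls can be compared. Each line gives the 250 bases before the transcription start, 5′ to 3′ on the gene's own strand, from RefSeq on GRCm38.p6. Capitals mark matches to GGGCGG (the core of an Sp1 site) or to the box TATAAA, found on either strand.
Igf1r, chr7:67952007-67952256, plus strand: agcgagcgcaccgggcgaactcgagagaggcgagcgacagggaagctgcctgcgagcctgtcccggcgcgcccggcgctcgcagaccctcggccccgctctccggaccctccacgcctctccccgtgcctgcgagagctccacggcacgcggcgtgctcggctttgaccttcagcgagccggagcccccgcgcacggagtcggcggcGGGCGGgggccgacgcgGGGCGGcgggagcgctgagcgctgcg
Igfbp3, chr11:7213924-7214173, minus strand: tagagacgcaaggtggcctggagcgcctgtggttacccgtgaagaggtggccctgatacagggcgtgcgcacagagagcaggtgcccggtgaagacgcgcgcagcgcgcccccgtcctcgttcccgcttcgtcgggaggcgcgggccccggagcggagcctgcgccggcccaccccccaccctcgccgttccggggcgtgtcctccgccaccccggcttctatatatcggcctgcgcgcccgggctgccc
Igfbp4, chr11:99040994-99041243, plus strand: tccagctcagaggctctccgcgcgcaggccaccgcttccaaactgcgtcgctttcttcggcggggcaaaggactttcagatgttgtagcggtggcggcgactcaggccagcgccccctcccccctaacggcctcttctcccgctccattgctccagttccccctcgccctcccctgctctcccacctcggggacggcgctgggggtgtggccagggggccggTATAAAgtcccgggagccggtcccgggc
Igfbp7, chr5:77408046-77408295, minus strand: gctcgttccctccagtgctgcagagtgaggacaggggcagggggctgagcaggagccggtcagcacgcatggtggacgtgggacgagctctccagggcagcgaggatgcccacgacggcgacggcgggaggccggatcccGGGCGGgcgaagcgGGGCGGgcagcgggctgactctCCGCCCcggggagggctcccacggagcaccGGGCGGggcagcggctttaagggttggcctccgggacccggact

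Their base composition was high in G and C, at 77.6% in *Igf1r*, 73.2% in *Igfbp3*, 69.2% in *Igfbp4* and 74% in *Igfbp7*, against a median of 52.4% over 32851 RefSeq promoters. *Igf1r* held 2 and *Igfbp7* held 4 matches to GGGCGG, while *Igfbp4* held a TATAAA and *Igfbp3* held neither. The 10 genes have 14 such windows, since *Igf2* has 4 starts and *Igfbp2* has 2. Of these 14 windows, 6 held GGGCGG (32.7% of all promoters), 2 held TATAAA (*Igfbp4* and *Igfbp6*; 12.4% of all), 1 held the BMP-SMAD motif GGCGCC (*Igf1*; 9.59% of all) and 0 held the FOXO motif TGTTTAC (3.17% of all). Both strands were searched, and GGGCGG and GGCGCC can overlap. A match is a run of letters and not a bound site, and the binding proteins printed here share no motif among those searched.

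*Igfbp2* and *Igfbp5* are neighbours on chromosome 1 (72824503 to 72852474 and 72857932 to 72874884, GRCm38), with their 3′ ends facing each other and 5457 bases between them. *Igf2* lies on chromosome 7 (142650766 to 142666816), 72622 bases from *H19*, the imprinted RNA that is its known partner in parental control. The other members lie on chromosomes 5, 7, 10, 11, 15 and 17.

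Levels of the 10 genes were first compared between the cell types, as CPM of UMIs summed per library. These levels are described and not tested, because the cell types come from the same libraries. Each gene was compared with itself only, since UMIs from 3′ ends do not give levels that can be set between genes. Unless another cell type is named, the order of levels covers the 10 cell types with at least 10 cells in all 6 libraries.

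**Figure D1:**
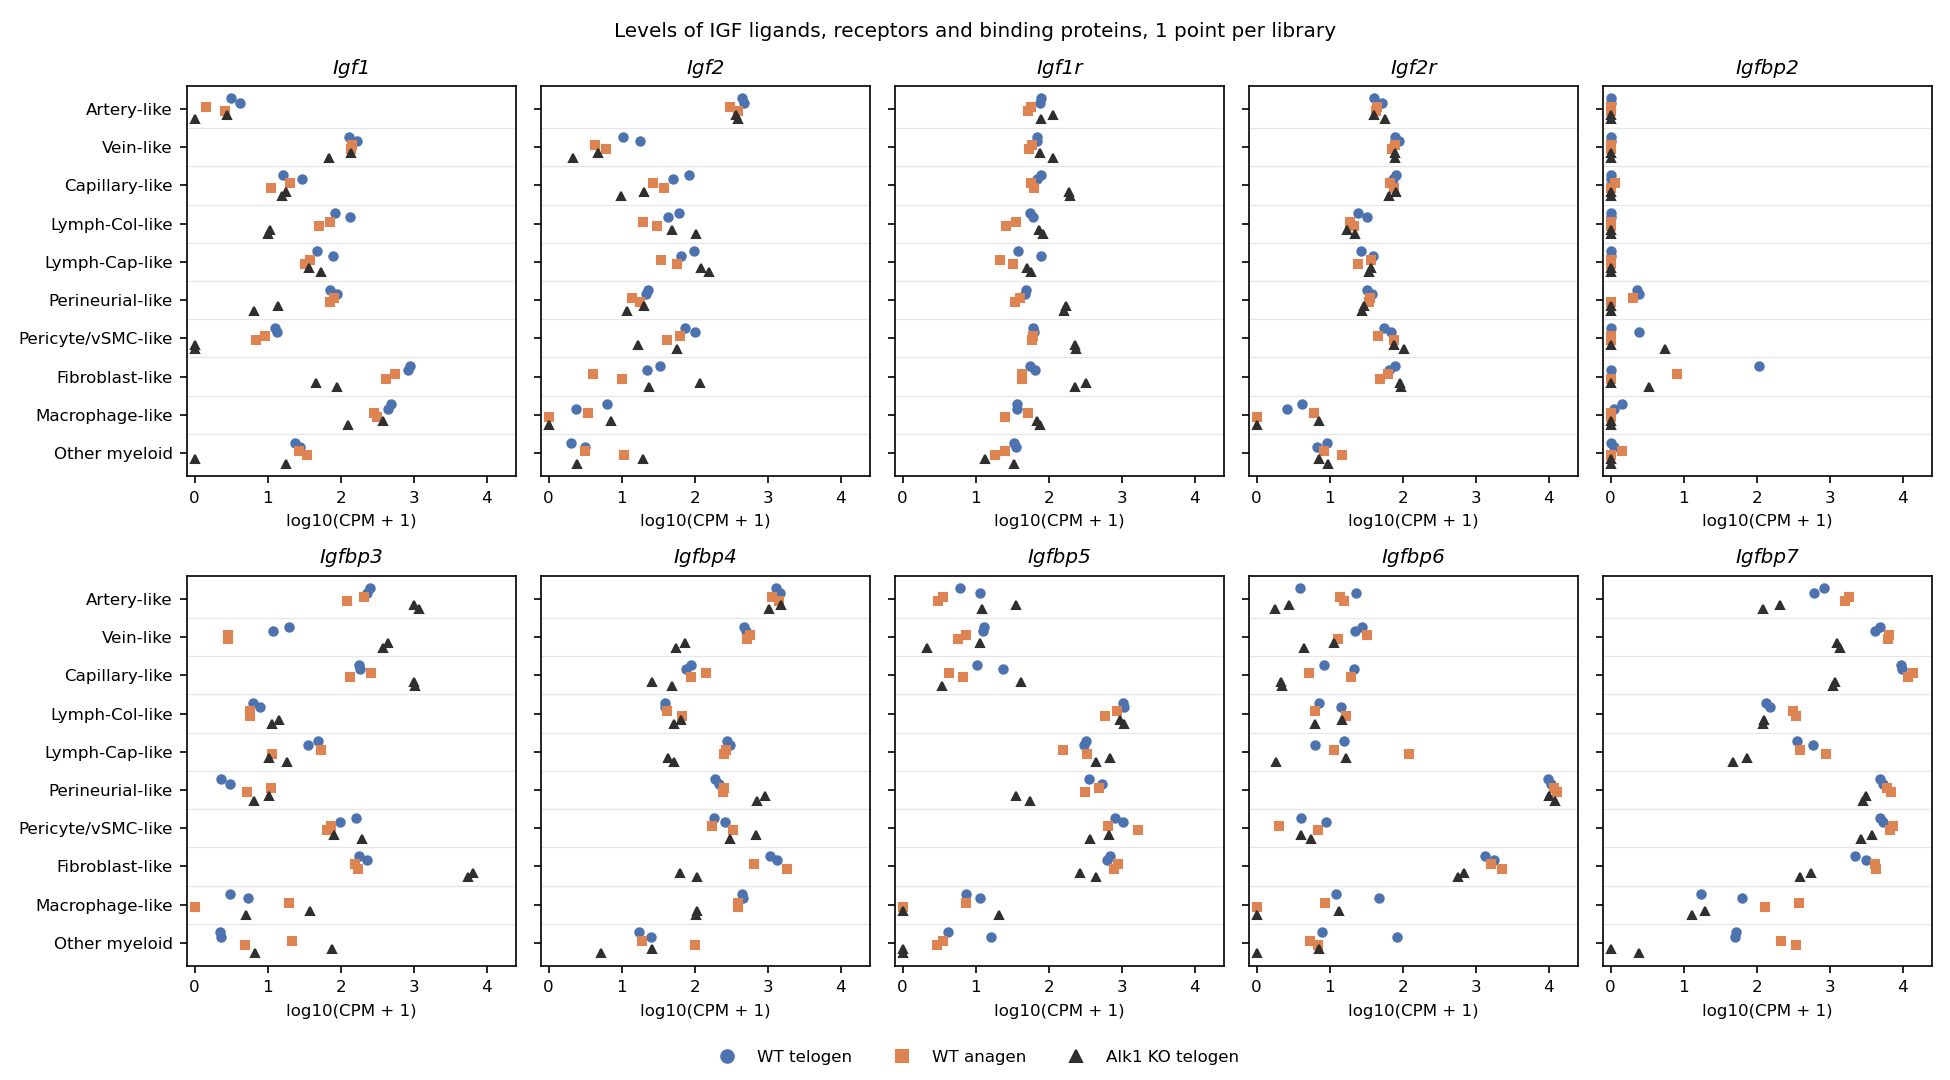
Level of each gene, as log10(CPM + 1), in the 10 cell types with at least 10 cells in all 6 libraries; each point is 1 library, by group. Igfbp6 was highest in perineurial-like cells of all 6 libraries (9829 to 12961 CPM) and Igf2 in artery-like ECs (302 to 467 CPM), whereas Igfbp2 was at or near 0 outside fibroblast-like cells.

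Among the ligands, *Igf1* was highest in fibroblast-like and macrophage-like cells, and *Igf2* in artery-like ECs. *Igf1* in fibroblast-like cells was at 888 and 823 CPM in telogen, 551 and 410 CPM in anagen and 44.8 and 87.5 CPM in the Alk1 KO. In macrophage-like cells it was at 482 and 448, 287 and 315, and 377 and 124 CPM in the same order. Fibroblast-like cells led in the 4 WT libraries and macrophage-like cells in both KO libraries, so the order of these neighbours is not fixed. Vein-like ECs came next (69.0 to 167 CPM) and lay above Lymph-Col-like ECs in 6 of 6 libraries, although their ranges overlapped. Artery-like ECs were lowest in *Igf1* among the 10 cell types, at 0 to 3.23 CPM, and mast-like cells held 1 *Igf1* UMI over 5 libraries (0 to 2.59 CPM).

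*Igf2* in artery-like ECs was at 449 and 467 CPM in telogen, 302 and 385 CPM in anagen and 370 and 396 CPM in the KO. No other cell type reached this range, the next being Lymph-Cap-like ECs at 34.0 to 155 CPM. After every cell was thinned to 1500 UMIs, 32.6% of artery-like cells held an *Igf2* UMI (805 of 2471 cells, exact 95% interval 30.7 to 34.5%), against 0.168% of macrophage-like cells (2 of 1189; 0.0204 to 0.606%). The unthinned shares were 55.1% and 1.27%, at median depths of 5086.5 and 11919 UMIs. Artery-like ECs held 46.3 to 84.3% of all *Igf2* UMIs of a library (mean 60.3%), which also depends on how many of these cells were sorted. The intervals cover counting error only.

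The receptors were spread more widely. *Igf1r* ranged from 25.7 CPM (mean of 6 libraries, WT and KO) in the other myeloid cells to 126 CPM in fibroblast-like cells, and the ranges of all neighbouring cell types overlapped. The first place of fibroblast-like cells came from the KO (327 and 226 CPM). In the 4 WT libraries they were at 54.6, 63.5, 41.7 and 42.2 CPM, below capillary-like ECs (76.9, 69.1, 56.2 and 61.2 CPM) in each. The unnamed ECs held 142 and 148 CPM of *Igf1r* in telogen, 92.7 and 84.3 CPM in anagen and 200.02 and 254 CPM in the KO. Mast-like cells, with 10 or more cells in 5 libraries, had 274 and 186 CPM of *Igf1r* in telogen, 209 and 114 CPM in anagen and 93.8 CPM in KO S1. *Igf2r* was at 69.3 to 86.8 CPM in vein-like and 63.5 to 81.0 CPM in capillary-like ECs, and at 0 to 6.17 CPM in macrophage-like cells. The thinned share of cells with an *Igf2r* UMI was 12.4% in vein-like ECs (176 of 1419; 10.7 to 14.2%) and 0.336% in macrophage-like cells (4 of 1189; 0.0917 to 0.859%), and the unthinned shares were 42.5% and 2.14%. The macrophage-like cells were the deeper ones, at a median of 11919 against 8182 UMIs. *Igf2r* in artery-like ECs (39.0 to 55.7 CPM) lay above Lymph-Cap-like ECs (23.1 to 37.8 CPM) in 6 of 6 libraries without overlap.

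The binding proteins each had their own leading cell types. *Igfbp6*, which is known to prefer IGF2, was at 9829 and 10728 CPM in telogen, 11890 and 12961 CPM in anagen and 9962 and 12031 CPM in the KO in perineurial-like cells. Among the 10 cell types fibroblast-like cells came next, at 567 to 2307 CPM, 8.10-fold lower by the means and without overlap. Perineurial-like cells held 86.5 to 93.9% of the *Igfbp6* UMIs of each library, and 99.8% of them had an *Igfbp6* UMI after thinning (2515 of 2519; 99.6 to 100%). In pericyte/vSMC-like cells the share was 0.409% (2 of 489; 0.0496 to 1.47%), and the unthinned shares were 99.8% and 3.33%, at median depths of 5177 and 8050.5 UMIs. Schwann-like cells, sampled with 10 or more cells in 4 libraries, held 3050 and 3031 CPM in telogen, 3803 CPM in anagen S1 and 24.8 CPM (1 UMI) in the 11 cells of KO S2. They lay between the perineurial-like and the fibroblast-like cells in the 3 WT libraries. The Schwann-like cluster also held 11 perineurial markers at least 2-fold above the median of the other clusters. Their part in its *Igfbp6* level was not tested.

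*Igfbp5*, a matrix-bound member of the family, was highest in Lymph-Col-like ECs (592 to 1063 CPM), pericyte/vSMC-like cells (362 to 1670 CPM) and fibroblast-like cells (265 to 879 CPM), 3 neighbours whose ranges overlapped. Among ECs it separated the lymphatic from the blood vessel types, with 158 to 687 CPM in Lymph-Cap-like ECs and 1.15 to 40.5 CPM in artery-like, vein-like and capillary-like ECs. *Igfbp7* was instead higher in capillary-like and vein-like than in Lymph-Col-like ECs. It was at 1091 to 14004 CPM in capillary-like and 1266 to 6514 CPM in vein-like ECs, and at 121 to 349 CPM in Lymph-Col-like ECs. The unnamed ECs were another main holder, with 7234 and 7381 CPM in telogen, 11521 and 12405 CPM in anagen and 1204 and 999 CPM in the KO. They held 8.72 and 5.36% of all *Igfbp7* UMIs in telogen, 25.6 and 41.8% in anagen and 15.3 and 17.9% in the KO, which also follows their number (132 and 103, 616 and 1039, and 182 and 215 cells).

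*Igfbp4* was highest in artery-like ECs (1048 to 1502 CPM), above fibroblast-like cells (62.0 to 1809 CPM) in 5 of 6 libraries. *Igfbp3*, the main carrier of IGFs in blood, was at 122 to 249.3 CPM in artery-like, 132 to 261 CPM in capillary-like and 157 to 228 CPM in fibroblast-like cells of the WT libraries, and its levels in the KO are given below. *Igfbp2* was low, with 366 UMIs in all. Fibroblast-like cells of telogen S1 held 244 *Igfbp2* UMIs (105 CPM), those of telogen S2 and anagen S2 held 0, and those of anagen S1, KO S1 and KO S2 held 7, 0 and 1. The 796 other unnamed cells held 23.8% of the 366 UMIs. Artery-like, vein-like, Lymph-Col-like and Lymph-Cap-like ECs had 0 UMIs of *Igfbp2* in all 6 libraries, which at a floor of 3 UMIs over the libraries allows up to 0.205, 0.246, 0.193 and 0.697 CPM.

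**Figure D2:**
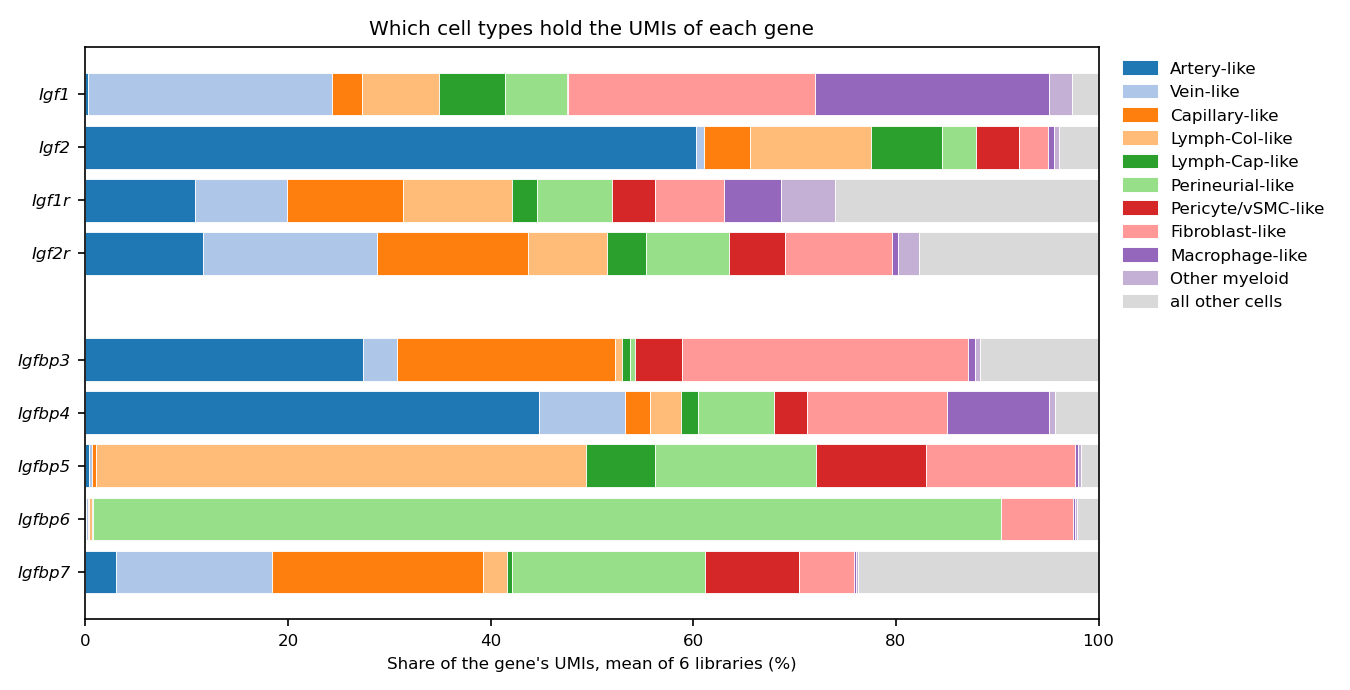
Share of each gene's UMIs held by each cell type (%), as the mean of 6 libraries; Igfbp2 is not drawn because of its few UMIs. Igfbp6 sat almost wholly in perineurial-like cells (mean 89.6%) and Igf2 mostly in artery-like ECs (60.3%), while Igf1r and Igf2r were spread over many cell types; the shares also follow the numbers of cells sorted.

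The genes closest in pattern to each member were found by Pearson's r of log2(CPM + 1) over 76 sums of a cell type and a library, among 8809 genes with a mean of at least 10 CPM. The points share libraries and depth, so r is a description. *Igfbp6* was closest to *Mfap5* (r = 0.922), *Vit* (0.916) and *Smoc2* (0.910), and *Igfbp7* to *Sparc* (0.914), *Col4a1* (0.879) and *Serpinh1* (0.860). *Igfbp5* was closest to *Cacna2d1* (0.886), *Nkd1* (0.881) and *Col4a5* (0.877). *Igf2* was closest to *Gja4* (0.795), *Fbln5* (0.781) and *Epas1* (0.776), of which *Gja4* and *Fbln5* had served as artery markers. For *Igf1* the closest genes were *Rab3il1* (0.759), *Cd302* (0.728) and *Cmtm3* (0.706), for *Igf1r* *Mga* (0.751), *Polg* (0.734) and *Stau1* (0.716), and for *Igf2r* *Zfyve9* (0.7998), *Rnf122* (0.794) and *Eml1* (0.793). *Igfbp3* was closest to *Galnt15* (0.796), *Ly6c1* (0.733) and *Ace* (0.688), and *Igfbp4* to *Ppic* (0.762), *Lpcat3* (0.75) and *Mxra8* (0.7499). Among the members themselves the highest r were between *Igfbp4* and *Igfbp7* (0.614) and between *Igf2* and *Igfbp3* (0.609), and that of *Igf1* and *Igf1r* was -0.24.

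The first comparison asked how the members differ between the anagen and telogen libraries of WT skin. Age (postnatal day 32 against 20) and the time since tamoxifen differed together with the stage and cannot be told apart from it. *Igfbp7* was higher at anagen, by the fitted value, in all 11 cell types compared, without overlap of the libraries in 9. Groups of so few libraries can separate by chance, and the share of all genes that did so was not counted in any comparison. *Igfbp7* rose past the threshold in 3 of the 11 cell types: artery-like ECs, Lymph-Col-like ECs and macrophage-like cells. *Igfbp3* fell in vein-like ECs. These were the only 4 of 88 tests of a member in a cell type that passed the quasi-likelihood test of edgeR on summed UMIs, at an adjusted p (Benjamini-Hochberg over all genes) under 0.05 and a fold over 1.3, while 33 of the 88 had an unadjusted p under 0.05 and 7 passed in DESeq2. Among all genes an unadjusted p under 0.05 was held by 530 of 8612 in pericyte/vSMC-like cells, the lowest share, and 1918 of 9964 in Lymph-Col-like ECs, the highest. Each cell type with at least 10 cells in each of the 4 libraries was tested, and the filter on low counts kept 3 to 10 of the 10 members. The mice are the replicates in these tests. Over all kept cells of a library *Igfbp7* was at 2071 and 1725 CPM in telogen and at 6505 and 6549 CPM in anagen. The part of this difference in the values of single cell types was not tested.

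*Igfbp7* in artery-like ECs was at 830 and 612 CPM in telogen and at 1817 and 1600 CPM in anagen. Both anagen libraries lay above both telogen libraries, a log2 fold change of 1.35 ± 0.16 (SE, edgeR adjusted p = 0.0176). This was 1 call among 8 members tested, where 0.426% of all genes were called in artery-like ECs. In Lymph-Col-like ECs *Igfbp7* went from 132 and 150 CPM to 317 and 349 CPM, again without overlap (1.37 ± 0.15, edgeR adjusted p = 0.00679; 1 of 9 members called, against 1.28% of all genes). This call was lost with no filter on low counts (adjusted p = 0.162) and with cell types from marker scores in place of clusters (adjusted p = 0.340, log2 fold change 0.60). The largest cluster among artery-like cells of telogen was led by *Pi16*, *Nebl* and *Fez1*, and that among those of anagen by *Gkn3*, *Mgp* and *Serpinf1* (37.7% and 41.1% of the cells). In Lymph-Col-like ECs the leading cluster was the same at both stages.

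In macrophage-like cells *Igfbp7* was at 16.3 and 61.8 CPM in telogen and at 380 and 129 CPM in anagen (2.99 ± 0.61, edgeR adjusted p = 0.0448; 1 of 7 members called, against 2.02% of all genes). Markers of ECs moved with it in these cells: the 9 EC markers summed to 57.2 and 66.5 CPM in telogen and 454 and 129 CPM in anagen, and 10 capillary markers to 289 and 530 and to 1929 and 413 CPM. Their part in the result was not tested. Anagen S2 held 17 macrophage-like cells, and the call was lost without telogen S1 (adjusted p = 0.999), without telogen S2 (0.979) and without anagen S1 (0.544), where the log2 fold change ran from 1.71 to 4.21, with all 6 libraries in the fit (0.0558) and at a clustering resolution of 1.2 (0.0603).

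*Igfbp3* in vein-like ECs was at 18.4 and 10.7 CPM in telogen and at 1.85 and 1.82 CPM in anagen, from 35 and 14 UMIs in all. The groups did not overlap (-2.85 ± 0.47, edgeR adjusted p = 0.0241; 1 of 9 members called, against 0.624% of all genes). The call did not hold with cell types from marker scores (adjusted p = 0.0885) or without telogen S1 (0.0928), anagen S1 (0.108) or anagen S2 (0.130), and DESeq2 gave it no adjusted p. The sign stayed negative in each of these. The largest cluster among vein-like cells was led by *Sectm1a*, *Tagln* and *Ackr1* in telogen (41% of the cells) and by *Selp*, *Sele* and *Ackr1* in anagen (45.5%). *Igfbp7* in the same cells was at 4878 and 4213 CPM against 6514 and 6333 CPM, without overlap but with an adjusted p of 0.0629 in edgeR.

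No member was called by edgeR in the other 7 cell types. In capillary-like ECs 0 of 9 members were called and 3 had an unadjusted p under 0.05 (DESeq2 called 0), where 0% of all genes were called. Lymph-Cap-like ECs gave 0 of 8 with 2 under 0.05 (DESeq2 0; 0.0172% of all genes), perineurial-like cells 0 of 9 with 4 (DESeq2 0; 0.94%), and pericyte/vSMC-like cells 0 of 8 with 2 (DESeq2 0; 0.0464%). Fibroblast-like cells gave 0 of 10 with 4 (DESeq2 1; 0.257%), the other myeloid cells 0 of 8 with 2 (DESeq2 2; 0%), and mast-like cells 0 of 3 with 2 (DESeq2 0; 0.0419%). The percentages are of genes called. DESeq2 gave no adjusted p to 4 members in capillary-like and 2 in Lymph-Cap-like ECs, so that it could not call them. The same held for 2 members in artery-like, 5 in vein-like and 6 in Lymph-Col-like ECs and 1 in macrophage-like cells. An unadjusted p under 0.05 was held by 908 of 9198 genes in capillary-like and 809 of 5815 in Lymph-Cap-like ECs. In perineurial-like cells it was 1603 of 11168, in pericyte/vSMC-like 530 of 8612 and in fibroblast-like 1168 of 8956. In other myeloid cells it was 1188 of 9336 and in mast-like cells 222 of 2385. A member that misses the threshold here has not been shown to stay the same, since few genes of any kind passed it.

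Several of these uncalled values had groups that did not overlap. This is a description only, since the share of all genes without overlap was not counted. *Igfbp7* in capillary-like ECs was at 9493 and 9748 CPM in telogen and 14004 and 11684 CPM in anagen (0.46 ± 0.13, adjusted p = 0.320 in edgeR). *Igf1* in fibroblast-like cells was at 888 and 823 against 551 and 410 CPM (-0.73 ± 0.18, adjusted p = 0.151 in edgeR). *Igf2* in fibroblast-like cells was at 32.7 and 21.3 against 3.05 and 9.17 CPM, and its log2 fold change was below 0 in all 8 cell types in which it was tested. *Igfbp6* in perineurial-like cells was at 9829 and 10728 against 11890 and 12961 CPM (0.35 ± 0.11, adjusted p = 0.208 in edgeR). *Igfbp6* and *Igfbp7* in mast-like cells of anagen S2 stood at 1284 and 682 CPM, beside 977 CPM of 12 perineurial markers, which were at 190.5 to 209 CPM in the other WT libraries, and the groups overlapped.

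**Figure D3:**
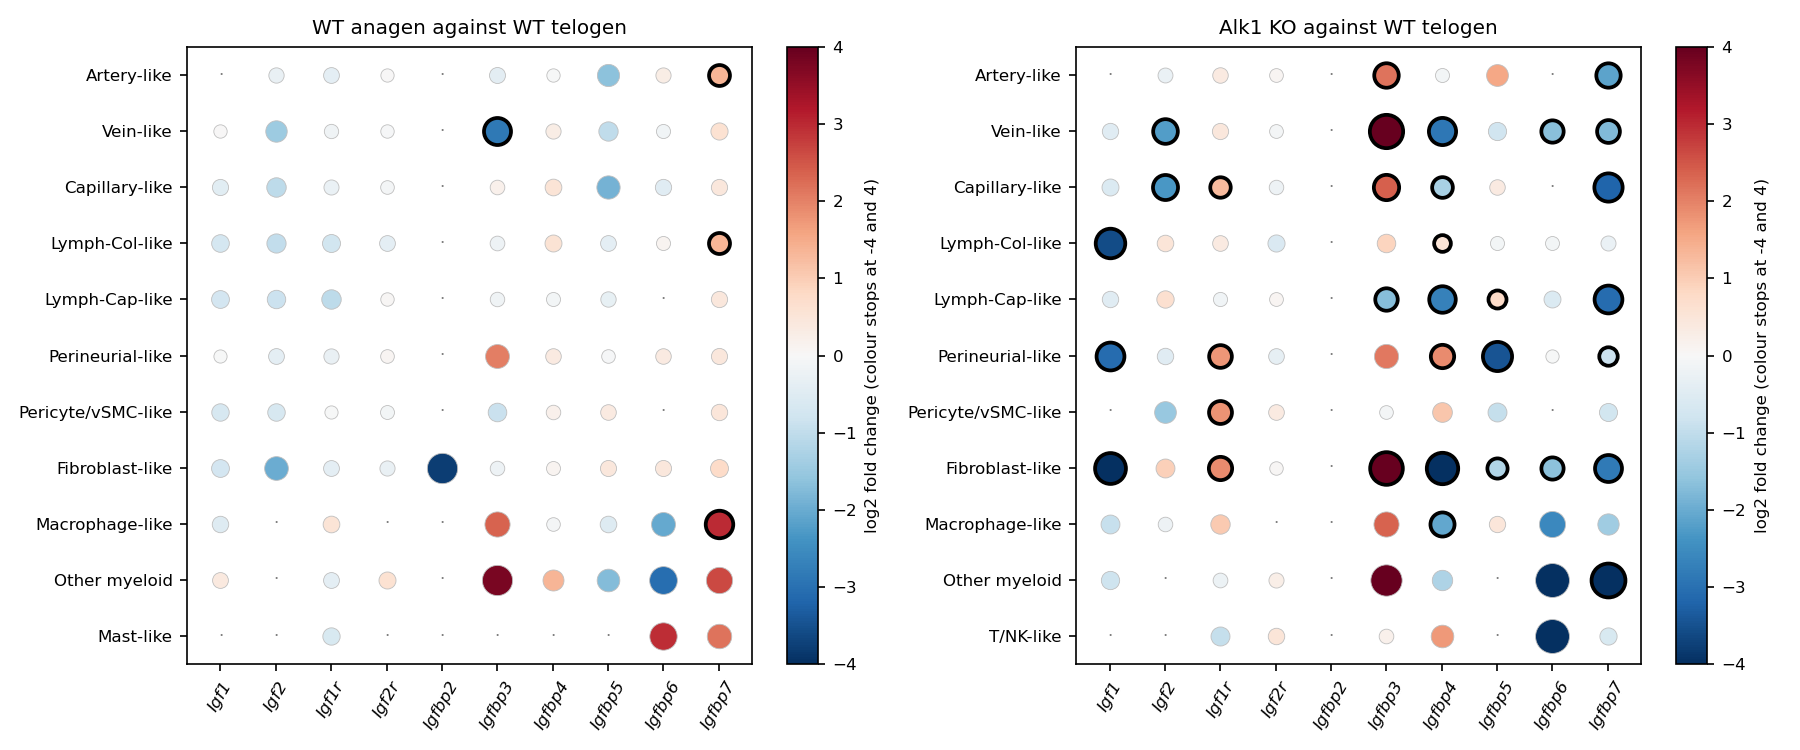
Log2 fold change of each member (columns) in each cell type (rows), for anagen against telogen (left) and Alk1 KO against telogen (right); colour and circle area give the fold, black rings mark adjusted p under 0.05 with a fold over 1.3, and small dots mark members that were not tested. The 4 ringed circles on the left are 3 of Igfbp7 and 1 of Igfbp3, and the 33 on the right are 11 rises and 22 falls; Igfbp6 in T/NK-like and Igfbp7 in other myeloid cells of the KO rest on 0 and 1 UMIs.

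Alk1 KO libraries were next compared with WT telogen. *Acvrl1*, the gene of Alk1, was looked at first. In capillary-like ECs it was at 218 and 180 CPM in telogen and at 111 and 106 CPM in the KO (-0.998 ± 0.181, edgeR adjusted p = 0.00166). In artery-like ECs it was at 313 and 279 against 308 and 251 CPM, in vein-like ECs at 124 and 114 against 107 and 107 CPM, in Lymph-Col-like ECs at 70.2 and 59.3 against 76.0 and 56.0 CPM, and in perineurial-like cells at 16.9 and 11.4 against 12.7 and 0 CPM, none of which passed the test. The same held in Lymph-Cap-like ECs (74.2 and 51.3 against 45.9 and 26.3 CPM) and other myeloid cells (55.0 and 43.6 against 18.5 and 26.9 CPM). *Acvrl1* fell in pericyte/vSMC-like cells (108 and 88.8 to 15.5 and 46.4 CPM), fibroblast-like cells (36.1 and 41.9 to 24.1 and 18.4 CPM) and macrophage-like cells (30.2 and 27.4 to 0 and 4.01 CPM), with adjusted p in edgeR of 0.0466, 0.0288 and 0.0338. In anagen it was at 127 and 149 CPM in capillary-like and 269 and 293 CPM in artery-like ECs. UMIs mark the 3′ end of a transcript and need not lie in the deleted part, so that these levels do not check the deletion.

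Of 88 tests of a member in 11 cell types, 33 passed in the Alk1 KO (11 rises and 22 falls), and 30 passed in DESeq2. This count has to be read against the background, which differed between cell types: from 0.0334 to 37.7% of all genes were called. By cell type, edgeR called 2 of 7 members in artery-like ECs (19.3% of all genes), 5 of 9 in vein-like (21.5%), 5 of 8 in capillary-like (30.3%), 2 of 9 in Lymph-Col-like (25.5%) and 4 of 9 in Lymph-Cap-like ECs (14.7%). It called 5 of 9 in perineurial-like (20.6%), 1 of 7 in pericyte/vSMC-like (6.2%), 7 of 9 in fibroblast-like (37.7%), 1 of 8 in macrophage-like (12.3%) and 1 of 7 in other myeloid cells (1.04%). In T/NK-like cells it called 0 of 6, with 2 at an unadjusted p under 0.05, and DESeq2 gave no adjusted p to any of the 6. There 0.0334% of all genes were called, and 772 of 5984 had an unadjusted p under 0.05. By gene, edgeR called *Igfbp3* in 5 of 11 cell types tested, *Igfbp4* in 7 of 11, *Igfbp5* in 3 of 9, *Igfbp6* in 2 of 8 and *Igfbp7* in 7 of 11. It called *Igf1* in 3 of 8, *Igf2* in 2 of 9, *Igf1r* in 4 of 11 and *Igf2r* in 0 of 10.

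*Igf1* fell in 3 cell types and was lower in the KO, by the fitted value, in all 8 in which it was tested. In fibroblast-like cells it went from 888 and 823 CPM to 44.8 and 87.5 CPM (-3.99 ± 0.32, edgeR adjusted p = 0.000141). In Lymph-Col-like ECs it went from 83.1 and 135 CPM to 9.87 and 9.11 CPM (-3.59 ± 0.26, edgeR adjusted p = 8.31e-07), and in perineurial-like cells from 71.4 and 88.5 CPM to 12.7 and 5.41 CPM (-3.09 ± 0.46, edgeR adjusted p = 0.000957). No KO library reached any telogen library in these 3 cell types. In macrophage-like cells, the other main source, the KO libraries differed from each other (377 and 124 CPM against 482 and 448, edgeR adjusted p = 0.152), and vein-like ECs stood at 139 and 69.0 against 131 and 167 CPM.

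Beside these falls, other markers moved as well. The 10 fibroblast markers summed to 45730 and 37670 CPM in fibroblast-like cells of telogen and to 25180 and 15820 CPM in those of the KO. *Col1a1*, 1 of these markers, was alone at 29664 and 21523 CPM in telogen and at 1774 and 1746 CPM in the KO. The lower sum therefore does not show a fall of the other fibroblast markers. In the same cells 4 adipocyte markers stood at 417 CPM in KO S2 against 1.29 and 1.37 CPM in telogen. In Lymph-Col-like ECs the 10 macrophage markers summed to 68.9 and 120 CPM in telogen and 12.4 and 14.0 CPM in the KO, and the largest cluster among WT cells of this type, led by *Nts*, *Gem* and *Cd24a* (37.7% of telogen and 41.8% of anagen cells), was not the largest among KO cells. KO S1 and S2 held 30 and 50 fibroblast-like and 80 and 56 perineurial-like cells. The part of these differences in the results was not tested.

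*Igf2* in artery-like ECs, its leading cell type, was at 449 and 467 CPM in telogen and 370 and 396 CPM in the KO, without overlap but short of the threshold (-0.25 ± 0.14, edgeR adjusted p = 0.247). It fell in capillary-like ECs, from 81.6 and 49.4 to 19.1 and 8.71 CPM (-2.32 ± 0.39, edgeR adjusted p = 0.000994). The 5 erythroid markers in capillary-like ECs were at 12940 and 69.1 CPM in telogen and 678 and 6847 CPM in the KO, high in 1 library of each group, and their part in the capillary-like results was not tested. In vein-like ECs, where *Igf2* was low throughout, it went from 9.59 and 17.0 to 3.81 and 1.15 CPM (-2.23 ± 0.62, edgeR adjusted p = 0.0195), from 31 and 6 UMIs. The vein-like value turned to 0.33 (adjusted p = 0.738) with cell types from marker scores, and its call was lost without telogen S1 (0.0674), telogen S2 (0.334) or KO S2 (0.0787). *Igf2* was at 98.3 and 64.8 against 122 and 155 CPM in Lymph-Cap-like ECs (edgeR adjusted p = 0.0698).

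The receptors differed from each other in the number of calls. *Igf1r* rose in 4 cell types. It went from 54.6 and 63.5 to 327 and 226 CPM in fibroblast-like cells (1.89 ± 0.27, edgeR adjusted p = 0.00145), from 47.2 and 46.9 to 174 and 162 CPM in perineurial-like cells (1.75 ± 0.21, edgeR adjusted p = 0.000296) and from 76.9 and 69.1 to 189 and 193 CPM in capillary-like ECs (1.26 ± 0.18, edgeR adjusted p = 0.000345). In pericyte/vSMC-like cells it went from 60.6 and 61.2 to 227 and 232 CPM (1.801 ± 0.251, edgeR adjusted p = 0.0176), a call lost without telogen S1 (0.0827) or telogen S2 (0.0766). These last cells also held EC markers (2971 to 3691 CPM in telogen, 637 and 2311 CPM in the KO) and, in telogen, 8839 and 6720 CPM of 5 erythroid markers against 37.3 and 18.6 CPM in the KO, whose part was not tested.

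*Igf2r* was called in 0 of 10 cell types by edgeR, with 1 at an unadjusted p under 0.05 (Lymph-Col-like ECs, 23.6 and 31.9 against 16.4 and 21.5 CPM) and 0 called in DESeq2. Its log2 fold changes ran from -0.61 to 0.50. DESeq2 gave *Igf2r* no adjusted p in other myeloid and T/NK-like cells. *Igfbp2* passed the filter on low counts in no cell type of this comparison.

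*Igfbp3* rose in artery-like, vein-like and capillary-like ECs and in fibroblast-like cells, and these include the largest rises called among the members. In fibroblast-like cells it went from 175 and 228 CPM to 6473 and 5545 CPM (4.57 ± 0.30, edgeR adjusted p = 0.000122), and the thinned share of these cells with an *Igfbp3* UMI ran from 10.45% in the lowest of the 6 libraries to 83.3% in the highest. In vein-like ECs it went from 18.4 and 10.7 to 446 and 376 CPM (4.79 ± 0.25, edgeR adjusted p = 7.66e-08). In artery-like ECs it went from 249.3 and 230 to 1000 and 1175 CPM (2.18 ± 0.15, edgeR adjusted p = 1.27e-06), and in capillary-like ECs from 175 and 181 to 998 and 1044 CPM (2.39 ± 0.18, edgeR adjusted p = 6.77e-06). The KO libraries lay above both telogen and both anagen libraries in all 4. The largest cluster among artery-like cells was led by *Pi16*, *Nebl* and *Fez1* in telogen (37.7%) and by *Cytl1*, *Gja5* and *Mgp* in the KO (40.05%), which bears on every artery-like value of this comparison, while in vein-like and capillary-like ECs the leading cluster was the same in both groups. In Lymph-Cap-like ECs *Igfbp3* fell instead. It went from 48.2 and 35.1 to 9.61 and 17.3 CPM (-1.69 ± 0.42, edgeR adjusted p = 0.00987), a call lost in DESeq2 (0.0890), with all 6 libraries in the fit (0.0743) and without telogen S1 (0.139). In Lymph-Col-like ECs it was at 5.33 and 6.84 against 13.2 and 10.4 CPM (0.88 ± 0.37, edgeR adjusted p = 0.0994). The change in artery-like ECs exceeded that in Lymph-Col-like ECs by 1.29 ± 0.35 on the log2 scale (interaction in edgeR, adjusted p = 0.0224; 5 of 9 members called, against 9.17% of all genes).

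*Igfbp4*, a binding protein cut by PAPP-A, moved in opposite directions in different cell types. In fibroblast-like cells it went from 1084 and 1349 to 62.0 and 106 CPM (-4.17 ± 0.31, edgeR adjusted p = 0.000131). In vein-like ECs it went from 472 and 496 to 73.1 and 55.2 CPM (-2.90 ± 0.20, edgeR adjusted p = 4.35e-07), and in Lymph-Cap-like ECs from 280 and 308 to 41.6 and 51.8 CPM (-2.71 ± 0.20, edgeR adjusted p = 1.50e-07). Falls were also called in macrophage-like cells (446 and 456 to 105 and 104 CPM; -2.09) and capillary-like ECs (89.1 and 75.4 to 24.8 and 48.6 CPM; -1.31). In perineurial-like cells it rose, from 190 and 217 to 907 and 708 CPM (1.90 ± 0.22, edgeR adjusted p = 0.000250). The 4 adipocyte markers stood at 91.9 CPM in perineurial-like cells of KO S2 and at 0 in those of KO S1, and their part in this rise was not tested. The perineurial-like change exceeded the fibroblast-like one by 5.94 ± 0.29 (interaction in edgeR, adjusted p = 3.76e-07; 5 of 9 members called, against 4.6% of all genes). Artery-like ECs, where its level was highest, were at 1301 and 1483 against 1502 and 1048 CPM, with overlap. The rise in Lymph-Col-like ECs (37.8 and 37.9 to 64.7 and 51.4 CPM; 0.55) was called with an adjusted p of 0.0415 in edgeR and lost in 9 of 16 alternatives, among them those without telogen S1 (adjusted p = 0.128), telogen S2 (0.137) or KO S1 (0.247), and in DESeq2 (0.232).

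*Igfbp5* fell in perineurial-like cells, from 352 and 528 to 34.9 and 54.1 CPM (-3.47 ± 0.33, edgeR adjusted p = 7.46e-05), and in fibroblast-like cells, from 686 and 620 to 265 and 449 CPM (-1.20 ± 0.27, edgeR adjusted p = 0.0102; 0.0546 without telogen S1). In Lymph-Col-like ECs, its leading EC type, it was at 1033 and 1057 against 949 and 1063 CPM, with overlap. In Lymph-Cap-like ECs it went from 325 and 300 to 687 and 448 CPM (0.78 ± 0.21, edgeR adjusted p = 0.0179), and this call was lost in DESeq2 (0.0728), with all 6 libraries in the fit (0.0995), with marker scores (0.0687), at a clustering resolution of 1.2 (0.586) and without KO S1 (0.226).

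*Igfbp6* was at 9829 and 10728 against 9962 and 12031 CPM in perineurial-like cells, with overlap and a log2 fold change of -0.01. *Igfbp6* fell in fibroblast-like cells, from 1347 and 1776 to 689 and 567 CPM (-1.64 ± 0.27, edgeR adjusted p = 0.00237), and the difference between these cell types was 1.56 ± 0.18 (interaction in edgeR, adjusted p = 0.000322). In vein-like ECs it went from 27.2 and 21.5 to 10.7 and 3.45 CPM (-1.66, edgeR adjusted p = 0.0185), a call lost in DESeq2 (0.128), with all 6 libraries in the fit (0.0541), without likely doublets (0.160), without telogen S1 (0.130) and without KO S2 (0.0587).

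*Igfbp7* fell in 7 cell types, and the fitted value was lower in the KO in all 11. In capillary-like ECs, the named cell type with its highest level in all 4 WT libraries, it went from 9493 and 9748 CPM to 1187 and 1091 CPM (-3.20 ± 0.17, edgeR adjusted p = 1.50e-06). It fell in Lymph-Cap-like ECs (360 and 589 to 72.6 and 46.0 CPM; -3.08), fibroblast-like cells (2246 and 3128 to 555 and 389 CPM; -2.83), artery-like ECs (830 and 612 to 205 and 119 CPM; -2.15) and vein-like ECs (4878 and 4213 to 1266 and 1398 CPM; -1.78). In both KO libraries capillary-like ECs thus lay below vein-like ECs, and also below pericyte/vSMC-like (3730 and 2659 CPM) and perineurial-like cells. In all 5 of these, both KO libraries lay below both telogen libraries. The fall in perineurial-like cells was smaller (4809 and 5281 to 3125 and 2839 CPM; -0.86 ± 0.22, edgeR adjusted p = 0.0195), and its call was lost with under 5% mitochondrial UMIs (0.0553), with marker scores (0.0598) and without telogen S1 (0.203) or S2 (0.320). In other myeloid cells there was 1 UMI in the KO against 664 in telogen, a ratio of 0.0231 (exact 95% counting interval 0.000585 to 0.129), and the call (edgeR adjusted p = 0.0335) was lost without likely doublets (0.0824), telogen S1 (0.765), telogen S2 (0.506) or KO S2 (0.101). In Lymph-Col-like ECs it was at 132 and 150 against 124 and 121 CPM. Over all kept cells of a library *Igfbp7* was at 2071 and 1725 CPM in telogen and at 714 and 474 CPM in the KO. The part of this difference in the values of single cell types was not tested.

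Whether a response differed between cell types was tested for 4 pairs of cell types as an interaction in edgeR with the library as a block, and 22 of 74 tests of a member passed. At anagen 0 of 10 members passed between perineurial-like and fibroblast-like cells, where 0.432% of all genes passed. Between artery-like and Lymph-Col-like ECs 0 of 9 passed, against 0.0931% of all genes. In these 2 pairs 5 and 3 members had an unadjusted p under 0.05, a looser threshold than that of the shares of all genes. The share of all genes at this looser threshold was not counted for the interactions. Between perineurial-like and artery-like cells 2 of 9 passed (1.26% of all genes), and between macrophage-like and fibroblast-like cells 3 of 10 (2.14%). In the KO, 5 of 9 members passed between perineurial-like and artery-like cells (6.87% of all genes) and 2 of 9 between macrophage-like and fibroblast-like cells (3.49%). *Igf1* fell less in macrophage-like than in fibroblast-like cells, by 2.96 ± 0.52 on the log2 scale (interaction in edgeR, adjusted p = 0.00217).

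Stage and KO comparisons share the telogen libraries, so that their values are set side by side and not correlated. For *Igfbp7* in capillary-like ECs the log2 fold change was 0.46 ± 0.13 at anagen and -3.20 ± 0.17 in the KO. For *Igfbp3* in vein-like ECs it was -2.85 ± 0.47 and 4.79 ± 0.25, and for *Igf1* in fibroblast-like cells -0.73 ± 0.18 and -3.99 ± 0.32.

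**Figure D4:**
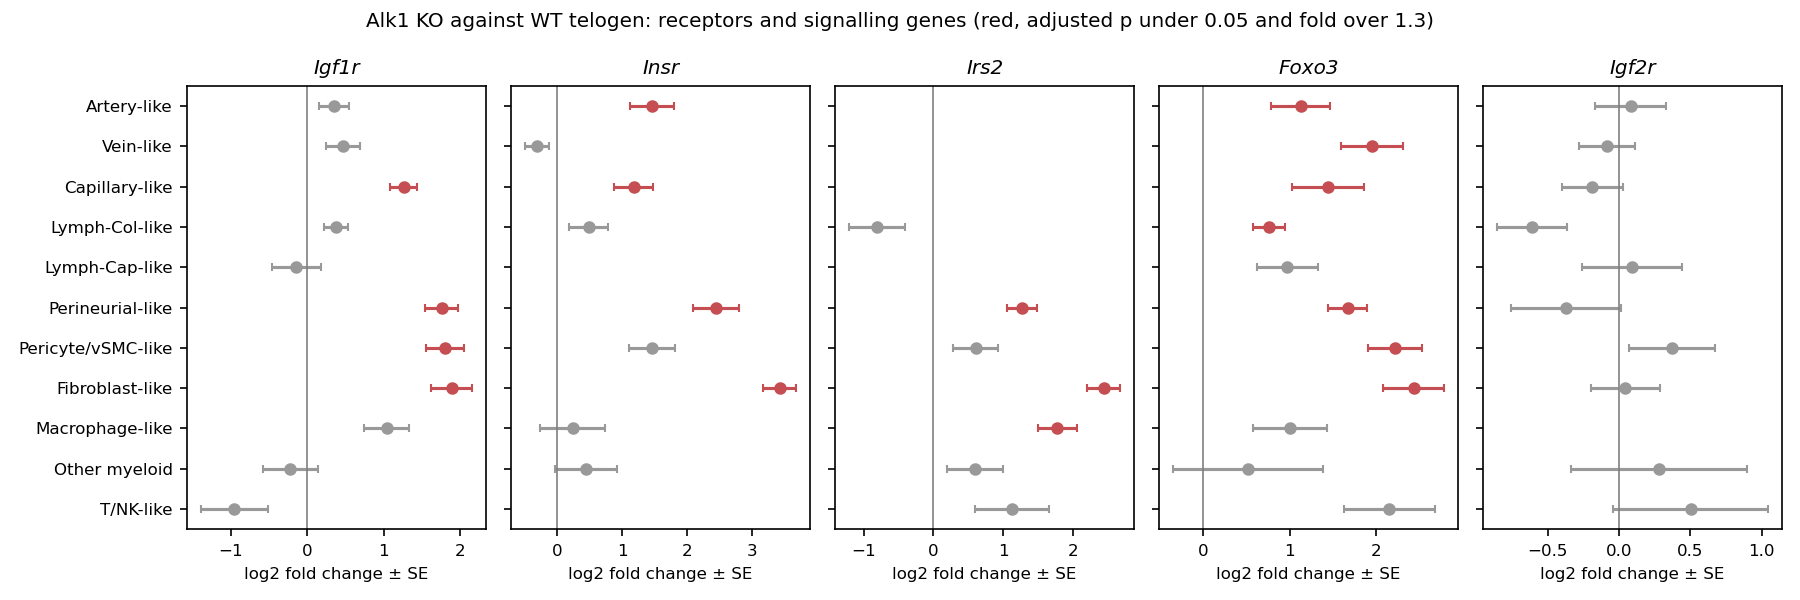
Log2 fold change ± SE of Igf1r, Insr, Irs2, Foxo3 and Igf2r in Alk1 KO against telogen, by cell type; red points passed the adjusted p under 0.05 with a fold over 1.3, and the horizontal scales differ between panels. Igf1r was red in 4, Insr in 4, Irs2 in 3 and Foxo3 in 7 cell types, and Igf2r in none. Insr, Irs2 and Foxo3 were picked from a list of 24 signalling genes. Of the KO tests of that list 16.7% passed, near the 17.8% of all genes called in the same cell types.

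Other genes of the IGF system were taken from 4 lists. Among 24 signalling genes, 31 of 221 tests over the cell types passed upward and 6 downward in the KO, against 0 and 1 of 209 at anagen. The KO calls were 16.7% of the tests, near the 17.8% of all genes called in the same cell types (weighted by the tests of the list in each), and those at anagen 0.4785% against 0.575%. *Foxo3*, a transcription factor that AKT keeps out of the nucleus, rose in 7 cell types, for example from 10.8 and 20.3 to 86.1 and 127 CPM in fibroblast-like cells (2.44, edgeR adjusted p = 0.00155). *Insr*, the insulin receptor, rose in 4, from 12.04 and 16.1 to 186 and 198 CPM in fibroblast-like cells (3.42, edgeR adjusted p = 0.000131). *Irs2*, an adaptor of both receptors, rose in perineurial-like, fibroblast-like and macrophage-like cells, and in fibroblast-like cells it went from 46.9 and 60.1 to 382 and 350 CPM. Of the other genes of this list, *Grb14* fell in Lymph-Col-like ECs (14.2 and 9.12 to 1.096 and 1.302 CPM), *Eif4ebp1* in macrophage-like cells (it rose in Lymph-Col-like and perineurial-like cells) and *Foxo1* in Lymph-Col-like ECs, while *Foxo1* rose in fibroblast-like cells. At anagen the list gave 1 call, a fall of *Pik3r1*, a PI3K subunit, in perineurial-like cells (181 and 220 to 105 and 112 CPM).

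Of 10 proteases and regulators of the binding proteins, 5 of 37 tests over the cell types passed upward and 10 downward in the KO. At anagen 0 and 0 of 42 passed in edgeR, and 12 had an unadjusted p under 0.05. Among all genes at anagen that was held by 530 of 8612 in the cell type with the lowest share and 1918 of 9964 in that with the highest. The KO calls were 40.5% of the tests, against 20.9% of all genes called in the same cell types with the same weighting (0.469% at anagen), and 7 of the 15 were in fibroblast-like cells, where 37.7% of all genes were called. *Htra1*, a secreted protease, fell in 4 cell types, from 558 and 506 to 48.2 and 53.0 CPM in fibroblast-like cells (-3.72, edgeR adjusted p = 0.000127). In the same cells *Pappa* and *Pappa2*, which cut binding proteins, and *Stc2*, their inhibitor, rose. *Pappa* went from 3.01 and 5.15 to 37.9 and 76.0 CPM, *Pappa2* from 14.6 and 7.21 to 44.8 and 96.7 CPM and *Stc2* from 3.44 and 1.72 to 41.3 and 73.7 CPM. *Pappa* also rose in vein-like ECs (2.24) and fell in Lymph-Cap-like ECs (-1.72). *Stc1*, a relative of *Stc2*, fell in Lymph-Col-like ECs, from 152 and 163 to 35.4 and 57.9 CPM. *Adam12*, another protease, was at 46.0 and 55.0 CPM in telogen fibroblast-like cells and at 0 and 2.30 CPM in the KO, and *Htra1* in vein-like ECs at 38.4 and 48.3 against 0 and 3.45 CPM. *Igfbpl1*, a further relative of the binding proteins, was at 11.2 and 10.3 CPM in telogen fibroblast-like cells and at 0 in both KO libraries. *Ide*, the insulin-degrading enzyme, had the largest fitted fall of this list, in macrophage-like cells, where it was at 19.7 and 18.2 CPM in telogen (259 UMIs) and at 0 in the 26 and 36 cells of the KO libraries (edgeR adjusted p = 0.0412).

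Of 10 relatives that share the IGFBP domain, mostly CCN proteins, 14 of 47 tests over the cell types passed upward and 7 downward in the KO, against 1 and 0 of 46 at anagen. These were 44.7% of the KO tests, against 20.8% of all genes called in the same cell types, and 2.17% against 0.474% at anagen. *Ccn3* rose in capillary-like ECs from 10.3 and 6.28 to 670 and 319 CPM (5.76, edgeR adjusted p = 5.46e-06) and in fibroblast-like cells from 7.31 and 13.4 to 517 and 106 CPM, and fell in Lymph-Cap-like ECs from 29.7 and 35.1 to 8.54 and 7.40 CPM. *Ccn2* rose in Lymph-Col-like, perineurial-like, pericyte/vSMC-like and fibroblast-like cells (1.96 to 3.17) and fell in Lymph-Cap-like ECs (-2.93). The other falls beyond this or close to it were of *Ccn5* in fibroblast-like cells (37.4 and 40.2 to 0 and 4.61 CPM) and *Ccn4* in perineurial-like cells (-2.81), while *Kazald1* rose in other myeloid cells (3.68) and fell in fibroblast-like cells (39.6 and 31.3 to 0 and 11.5 CPM; -2.70) and artery-like ECs (73.7 and 89.7 to 24.5 and 12.9 CPM; -2.13). *Esm1*, endocan, a proteoglycan secreted by ECs, fell in capillary-like ECs from 91.0 and 101 to 11.3 and 23.7 CPM. At anagen *Ccn1* rose in Lymph-Col-like ECs (369 and 276 to 597 and 549 CPM).

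Of 10 imprinted neighbours and *Igf2* RNA-binding genes, 14 of 67 tests over the cell types passed upward and 10 downward in the KO, against 1 and 2 of 65 at anagen. These were 35.8% of the KO tests, against 19.45% of all genes called in the same cell types, and 4.62% against 0.525% at anagen. The shares of the 4 lists describe them and were not tested. *Peg3* rose in 6 cell types, from 56.3 and 34.1 to 515.5 and 891 CPM in capillary-like ECs, and *Mest* fell in 5. The fold of *Peg3* was also high in macrophage-like cells (3.76), and *Mest* fell most in fibroblast-like (-2.30) and perineurial-like cells (-2.08). *H19* rose in Lymph-Col-like ECs (3.11 and 7.30 to 45.7 and 92.1 CPM) and fell in fibroblast-like cells (55.5 and 27.8 to 3.45 and 4.61 CPM). *Igf2* itself passed the test in neither of the cell types where *H19* was called, at 59.6 and 41.5 against 48.6 and 103 CPM in Lymph-Col-like ECs and 32.7 and 21.3 against 117 and 23.0 CPM in fibroblast-like cells. At anagen *Cdkn1c* fell and *H19* rose in perineurial-like cells, and *Plagl1* fell in vein-like ECs.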

How the data were processed

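Single tdTomato+ GFP− (WT) or tdTomato+ (KO) cells were captured with Chromium 3′ v3 chemistry. The authors aligned the reads to mm10 with Cell Ranger 6.0.1 and deposited raw UMI counts per gene and cell, without normalization, and their notes also name Seurat 4.0. Here cells were filtered, integrated over libraries with a numpy version of Harmony, clustered (scanpy 1.11.5, Leiden resolution 0.6) and named from markers. The 63 member and pathway genes were left out of the clustering. Doublets were kept in the reported values, and removing the 5% with the highest doublet scores was an alternative. UMIs were summed per library and cell type where every library compared held 10 or more cells. Tests used edgeR 4.0.16 (filterByExpr, TMM, quasi-likelihood F test), and DESeq2 1.42.0 was an alternative. Scripts were tested on simulated counts. The members, lists and rules for naming genes were chosen with earlier results of these data known: all members were named, and for a pathway list with more than 6 calls the 3 largest rises and falls. Other genes of these lists, such as *Htra1*, *Stc1* and *Esm1*, and further calls of the named ones were added after their values were seen. Same-numbered mice were not paired by any label.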

Additional observations from a re-analysis of the deposited data

Results flagged for a closer look

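The results below are differences between the responses of 2 cell types of the same mice, on the log2 scale ± SE, that passed the interaction test of edgeR at an adjusted p under 0.05 with a fold over 1.3. In the anagen comparison, the response of perineurial-like minus that of artery-like cells was 2.43 ± 0.41 for *Igfbp3* and -0.97 ± 0.16 for *Igfbp7*. In the anagen comparison, the response of macrophage-like minus that of fibroblast-like cells was 2.496 ± 0.59 for *Igfbp3*, -2.18 ± 0.56 for *Igfbp6* and 2.19 ± 0.33 for *Igfbp7*. In the Alk1 KO comparison, the response of perineurial-like minus that of fibroblast-like cells was -2.56 ± 0.58 for *Igfbp3*, 5.94 ± 0.29 for *Igfbp4*, -2.24 ± 0.40 for *Igfbp5*, 1.56 ± 0.18 for *Igfbp6* and 1.91 ± 0.18 for *Igfbp7*. In the Alk1 KO comparison, the response of perineurial-like minus that of artery-like cells was 1.44 ± 0.29 for *Igf1r*, 2.08 ± 0.22 for *Igfbp4*, -5.02 ± 0.51 for *Igfbp5*, 3.19 ± 0.76 for *Igfbp6* and 1.37 ± 0.23 for *Igfbp7*. In the Alk1 KO comparison, the response of artery-like minus that of Lymph-Col-like cells was 1.29 ± 0.35 for *Igfbp3*, -0.70 ± 0.17 for *Igfbp4*, 1.64 ± 0.46 for *Igfbp5*, -2.99 ± 0.90 for *Igfbp6* and -1.93 ± 0.23 for *Igfbp7*. In the Alk1 KO comparison, the response of macrophage-like minus that of fibroblast-like cells was 2.96 ± 0.52 for *Igf1* and 2.14 ± 0.44 for *Igfbp4*. The cell types differ in number of cells and depth, and the part of these in the differences was not tested. Several rest on few UMIs. *Igfbp3* in perineurial-like cells had 15 UMIs in telogen, 35 in anagen and 4 in the KO. In macrophage-like cells of anagen the 15 UMIs of *Igfbp3* and the 6 of *Igfbp6* all came from S1, with 0 in S2. In artery-like ECs *Igfbp6* had 31 UMIs in telogen and 3 in the KO, and *Igfbp5* 20 and 53. *Igfbp5* in perineurial-like cells of the KO had 21.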

How the results depend on the processing

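Of 37 calls, 25 kept their direction and threshold in every alternative run (1 of 4 at anagen, *Igfbp7* in artery-like ECs, and 24 of 33 in the KO), and 1 reversed: *Igf2* in vein-like ECs of the KO, at 0.33 with cell types from marker scores. RLE scaling and at least 500 genes per cell ended no call. The run with no fold threshold could end none, since it only loosens the rule. The 4 calls at anagen became 7 in DESeq2 and 24 with no filter on low counts, and 8 to 18 when 1 library was left out, where a lone sample is assumed to vary like the other group. The 33 KO calls ran from 29 to 46 on leaving out 1 library, and were 49 with no filter. The 22 interactions ran from 10 to 23, with 10 without telogen S2 and 15 without telogen S1. The cause was not tested. The samples share only a replicate number: deviations of same-numbered libraries correlated at -0.151 to 0.161 over 22 fits, and a replicate block gave 6 and 40 calls in place of 4 and 33, with no reported call lost. With crossed numbers, an alternative chosen after seeing the data, the block gave 39 KO calls. With 2 mice per group and 26 to 50 fibroblast-like or macrophage-like cells in a KO library, low members could not be resolved.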

Other observations

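Some genes outside the IGF system were looked at after their values had been seen, as levels only. *Fkbp5*, a glucocorticoid-induced chaperone, was higher in both KO libraries than in all 4 WT libraries in 10 of 10 cell types, *Tsc22d3* and *Klf15* in 9 each, and *Txnip* and *Pnpla2* in 8 each. *Col1a1*, a fibrillar collagen, was lower in both KO libraries in 10 of 10 cell types, and *Col3a1* and *Sparc* in 9 each. No test was run on these genes.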
